A study of Drosophila melanogaster with 40 samples.

Results

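A set of 10 genes of lipid synthesis and storage was followed through both time courses of Drosophila S2 cells, a line grown from embryonic, hemocyte-like cells. The genes were taken by function: the fly symbols were matched through the RefSeq accessions that name each locus, and each of the 10 members fell on exactly 1 locus among the 15863 of the 25 °C table and the 15864 of the 28 °C table. The locus of Desat1 also carries a second gene, vrs, so its value is shared by both. The 40 libraries form 2 time courses of 20, from CT24 to CT81 at 3 h intervals, where CT is circadian time. In the 28 °C time course, cells had been entrained by temperature cycles, moved to constant 28 °C and profiled from ribosome-depleted total RNA at low coverage. In the 25 °C time course, cells were entrained by temperature cycles for longer, given a medium change, moved to constant 25 °C and profiled from polyA RNA. Each time point is 1 library, so neighbouring libraries stand in for replicates: the time course was cut into window 1 (CT24 to CT36), window 2 (CT39 to CT51), window 3 (CT54 to CT66) and window 4 (CT69 to CT81) of 5 libraries each, and p-values measure the spread within these windows. A difference between windows is a difference in time since the transfer, and any culture, library or sequencing batch that followed the sampling order cannot be told apart from it. The time courses differ in temperature, entrainment, library method and depth at once, and no test was made between them.

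Fatty acid synthesis in flies begins with citrate and acetate, which ATPCL (ATP citrate lyase) and AcCoAS (acetyl-CoA synthetase) turn into acetyl-CoA. ACC (acetyl-CoA carboxylase) makes malonyl-CoA from it, FASN1 (fatty acid synthase) builds the saturated chain, and Desat1 introduces a double bond. SREBP is the membrane-bound transcription factor that activates these enzymes, and SCAP is the protein that escorts it to the Golgi, where it is cut and released. The fatty acids are stored as triglyceride through mdy (midway, a diacylglycerol acyltransferase), coated on the lipid droplet by Lsd-2 (a perilipin) and released again by bmm (brummer, the fly's adipose triglyceride lipase). In the fly this chemistry is best known from the fat body, the organ that combines the roles of liver and adipose tissue.

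Levels are in FPKM, reads scaled by transcript length and library size. The cells carried most hemocyte markers of their lineage, with fat body markers below the limit of expression. At 25 °C, 7 of 10 hemocyte markers reached a mean of 0.9 FPKM, the study's limit for an expressed transcript, while the larval hemocyte genes Hml and NimC1 averaged 0.0214 and 0.0133 FPKM. At 28 °C 9 of the 10 reached it, with Hml at 10.0 FPKM and NimC1 at 0.788 FPKM. In the shallower 28 °C libraries the same limit rests on far fewer reads. There eater ranged from 0 to 8.74 FPKM and He from 0 to 101 FPKM. None of 8 fat body markers reached a mean of 0.9 FPKM in either time course. Of 5 neuron markers 2 reached it in both, elav (6.65 FPKM at 25 °C and 6.61 FPKM at 28 °C) and brp (5.77 and 2.46 FPKM). Of 5 muscle markers none reached it at 25 °C and 1, Mlc2 (0.905 FPKM), at 28 °C. Of 3 germline markers found, 1, osk (1.81 FPKM), reached it at 25 °C and none at 28 °C. Library depth, read from the step that 1 read makes in low values, ranged from 0.512 to 1.42 times the median at 28 °C and from 0.576 to 1.55 times at 25 °C. The 28 °C libraries are far shallower: a member's median number of reads there was at most 375, against up to 48705 reads at 25 °C. In the 25 °C libraries the first principal component held 63.3% of the variance and its loadings ran from the most negative at CT24 to the most positive at CT81. The course was uneven: the loading fell only between CT51 (0.063) and CT54 (-0.0073) and rose most between CT66 (0.115) and CT69 (0.242). These intervals are the borders of window 3, so changes between neighbouring windows there span them. No label gives a batch for them. In the 28 °C libraries the first principal component held 15.0%. The 8 libraries CT39 to CT48 and CT69 to CT78 had its highest loadings, at least 0.10 against at most 0.00049 in the other 12, and CT27 (-0.519) and CT24 (-0.344) lay furthest out at the other end. These 8 were first noticed from the values of FASN1 itself, and the limit on the loadings, computed without the listed lipid genes, was then set to take them, so the low FASN1 in them is part of how they were chosen. No label gives a batch for the 8. The changes of FASN1, ACC, ATPCL, AcCoAS and bmm at 28 °C are given also without them, in a fit that leaves CT81 alone in window 4, assumed to vary like the others.

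The order of levels was similar in both time courses for the abundant members. At 28 °C, Desat1 averaged 176 ± 37.5 FPKM, SREBP 132 ± 19.9 FPKM and FASN1 112 ± 46.4 FPKM (SD, n = 20). At 25 °C, Desat1 averaged 732 ± 120 FPKM, SREBP 368 ± 20.9 FPKM and FASN1 253 ± 32.4 FPKM (SD, n = 20). Next came AcCoAS, with 33.6 ± 15.6 FPKM at 28 °C and 96.6 ± 8.14 FPKM at 25 °C. ATPCL averaged 31.4 ± 14.8 FPKM at 28 °C and 45.1 ± 2.54 FPKM at 25 °C. ACC averaged 29.2 ± 10.1 FPKM at 28 °C and 42.5 ± 2.99 FPKM at 25 °C, so that the mean of ATPCL lay above it by less than 1 SD of ACC in both. SCAP lay below them at 21.3 ± 8.39 FPKM at 28 °C and 32.4 ± 3.57 FPKM at 25 °C. The genes of storage were the lowest. The lipase bmm averaged 8.15 ± 6.50 FPKM at 28 °C and 20.1 ± 1.26 FPKM at 25 °C, and the acyltransferase mdy averaged 14.9 ± 4.56 FPKM at 25 °C. At 28 °C mdy was listed at 0 in 10 of 20 libraries and reached 41.4 FPKM at CT48. Lsd-2 was listed at 0 in all 20 libraries at 28 °C and in 16 of 20 at 25 °C, with a highest value of 0.0214 FPKM. It passed no filter and entered no comparison of windows and no rhythm test, which leaves 9 members tested between windows in each time course. Only the check for outlying values within windows, given near the end, included Lsd-2, at 25 °C.

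**Figure D1:**
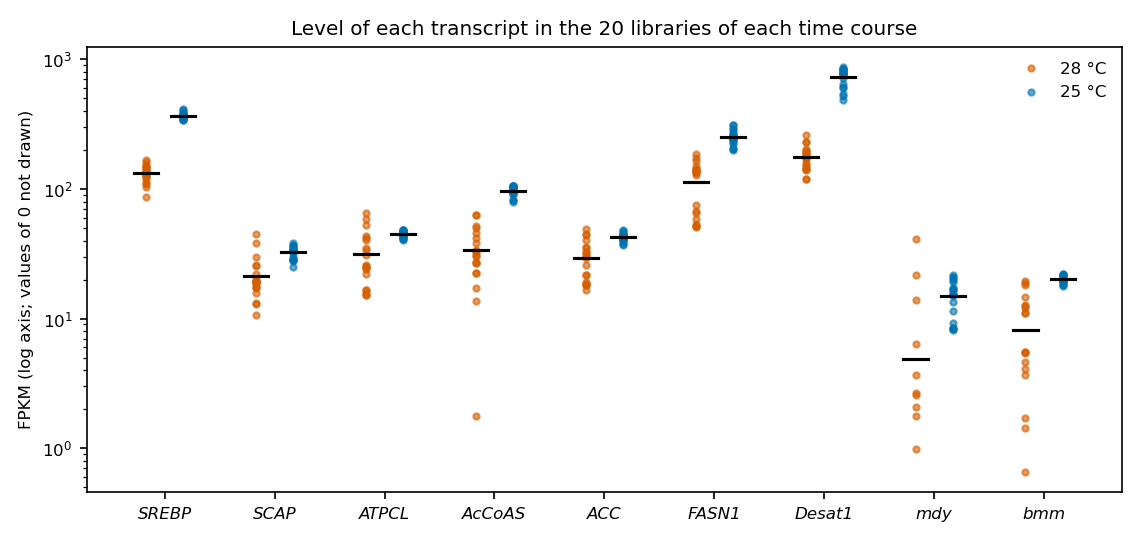
Level of the 9 tested transcripts in FPKM on a log axis, 1 point per library, with the 20 libraries at 28 °C to the left of the 20 at 25 °C for each gene and a bar at the mean. Desat1, SREBP and FASN1 are the highest in both time courses, and the spread is wider at 28 °C, where libraries listed at 0 are not drawn.

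At 25 °C the clearest change was a loss of mdy. Its values were 8.49, 8.48, 9.17, 8.13 and 8.32 FPKM in window 4, against 21.8, 19.3, 20.9, 20.7 and 19.7 FPKM in window 1. The windows did not overlap. The share of all loci without overlap was not computed in either time course, so nothing is read from a lack of overlap here or below. For mdy the log2 change was -1.17 ± 0.08 (SE, adjusted p = 1.1e-09, limma with Benjamini-Hochberg adjustment over 7531 loci), a ratio of 0.443, and only 56 of the 7531 loci had a more negative one. In these bulk cultures, fewer cells expressing a gene and less RNA per cell cannot be told apart. The decline came in stages. In window 2 mdy was at 17.2, 17.0, 15.3, 13.5 and 11.4 FPKM, each library lower than the one before (log2 change -0.45 against window 1, adjusted p = 4.1e-04, limma). In window 3 it stood at 16.9, 15.3, 16.4, 15.6 and 15.3 FPKM, a log2 change of 0.10 against window 2 that was not called. The last stage was a log2 change of -0.83 between windows 4 and 3 (adjusted p = 1.0e-06, limma). Most of it fell between single neighbouring libraries, with 8.49 FPKM at CT69 against 15.3 FPKM at CT66. A step in the other direction separated CT54, at 16.9 FPKM, from CT51, at 11.4 FPKM, and 97.5% of loci had a smaller or more negative change over that interval.

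Desat1 moved the opposite way. It stood at 869.7, 848, 846, 829.9 and 845 FPKM in window 4, against 488, 521, 540.3, 599.8 and 612 FPKM in window 1. The windows did not overlap, and the log2 change was 0.62 ± 0.06 (SE, adjusted p = 5.5e-08, limma), a ratio of 1.54. Most of the gain was complete by window 2, which had a log2 change of 0.44 against window 1 (adjusted p = 1.4e-04, limma). SCAP climbed more evenly, at 35.2, 36.3, 36.2, 38.5 and 36.7 FPKM in window 4, against 25.2, 28.9, 28.8, 27.7 and 28.2 FPKM in window 1. Its log2 change was 0.39 ± 0.04 (SE, adjusted p = 2.3e-07, limma), again with no overlap.

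FASN1 rose early, and its later changes between neighbouring windows were not called. Its values were 234, 275, 249, 312 and 310.4 FPKM in window 2, against 204, 206, 200.4, 244 and 242 FPKM in window 1, a log2 change of 0.33 ± 0.08 (SE, adjusted p = 0.0048, limma). It peaked at CT48 and CT51 and stood at 232 FPKM at CT54. In window 4 FASN1 was at 292, 291, 257, 263 and 243 FPKM, which overlapped window 1 by 1 library (log2 change 0.30, adjusted p = 0.0040, limma). A rank trend over all 20 libraries gave FASN1 a Kendall tau of 0.32 (adjusted p = 0.078), so the call rests on the comparison of windows. AcCoAS averaged 104 ± 1.82 FPKM in window 4 and 85.9 ± 6.56 FPKM in window 1 (SD, n = 5 each; log2 change 0.27, limma adjusted p = 2.6e-05). ATPCL went the other way, with 42.1 ± 1.27 FPKM in window 4 and 47.0 ± 1.21 FPKM in window 1 (SD, n = 5 each; log2 change -0.15, limma adjusted p = 6.8e-04).

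SREBP and ACC changed between neighbouring windows but had no net change that was called. SREBP averaged 391 ± 21.1 FPKM in window 2 and 353 ± 17.7 FPKM in window 1 (SD, n = 5 each; log2 change 0.14, limma adjusted p = 0.0051), then fell by 0.14 on the log2 scale in window 3 relative to window 2 (adjusted p = 0.011, limma). Its window 4 differed from window 1 by a log2 change of 0.08 (adjusted p = 0.057, limma), short of the threshold; it passed on leaving out CT33, CT36, CT39, CT48 or CT75 alone, with adjusted p as low as 0.018 (limma), and under median-of-ratios scaling (log2 change 0.12, adjusted p = 0.013, limma). ACC fell by 0.17 on the log2 scale in window 3 relative to window 2 (adjusted p = 0.015, limma) and rose by 0.15 in window 4 relative to window 3 (adjusted p = 0.016, limma), with a net log2 change of 0.04 that was not called. The lipase bmm was called in no comparison at 25 °C: its log2 change between windows 4 and 1 was 0.03, with an interval of -0.07 to 0.14 (95%, normal).

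**Figure D2:**
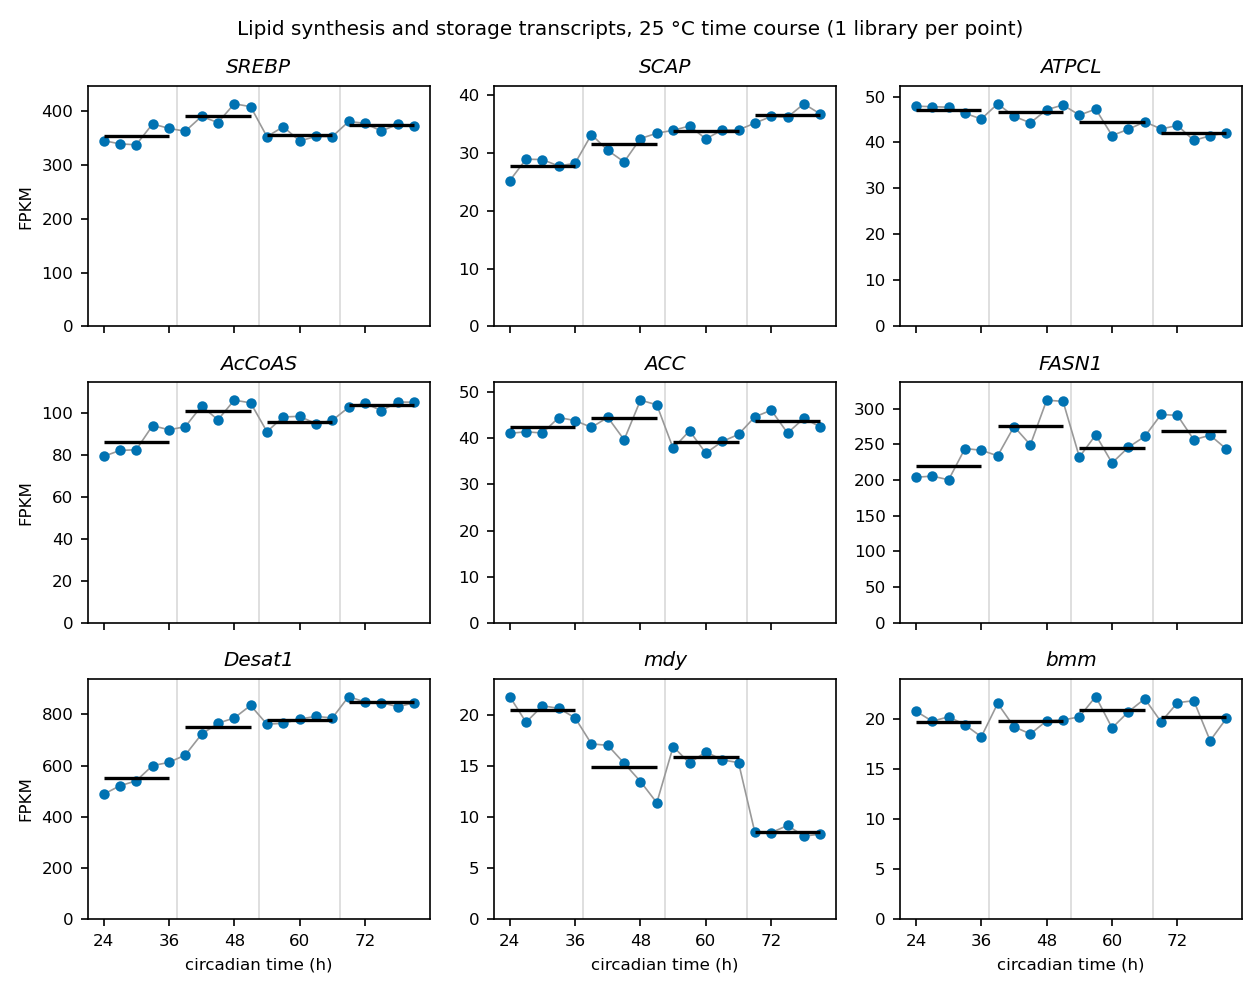
FPKM of the 9 tested transcripts against circadian time in hours at 25 °C, 1 library per point, with a black bar at the mean of each window and grey lines between windows. Desat1 and SCAP climb, mdy steps down to between 8.13 and 9.17 FPKM in window 4, and FASN1, SREBP and ACC peak at CT48 to CT51.

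In all, 6 of the 9 tested members changed between windows 4 and 1 at 25 °C, 4 upward and 2 downward. This stands beside a background in which 70.9% of all loci were called, 33.5% upward and 37.4% downward, so the share of members is close to that of all loci. The members' median log2 change was 0.08, against -0.02 over all loci. Between windows 2 and 1, there were 5 members that rose and 1 that fell (42.4% of loci called, 18.5% higher and 23.9% lower), between windows 3 and 2 there were 2 that fell (26.8%, with 12.5% lower), and between windows 4 and 3 there were 3 that rose and 1 that fell (48.2%, with 21.8% higher and 26.4% lower). SCAP and AcCoAS were among those 3, each with a log2 change of 0.11 and adjusted p = 0.041 and 0.043 (limma), and both lost the call when no filter on low values was applied (adjusted p = 0.064 for each, limma). Leaving out single libraries also ended them: over 20 fits, each lacking another library, SCAP was called in 12 and AcCoAS in 13, with the highest adjusted p of 0.11 for both, without CT78 for SCAP and without CT54 for AcCoAS. Over the 20 libraries at 25 °C the Spearman rho of FASN1 was 0.87 with SREBP, 0.80 with AcCoAS, 0.68 with Desat1, 0.66 with ACC, 0.49 with SCAP, -0.19 with ATPCL and -0.69 with mdy. At 28 °C the same pairs gave 0.43 with SREBP, 0.37 with AcCoAS, 0.07 with Desat1, 0.77 with ACC, -0.39 with SCAP, -0.28 with ATPCL and 0.06 with mdy. These are descriptions, since libraries in a time series share their trend, depth and normalisation.

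**Figure D3:**
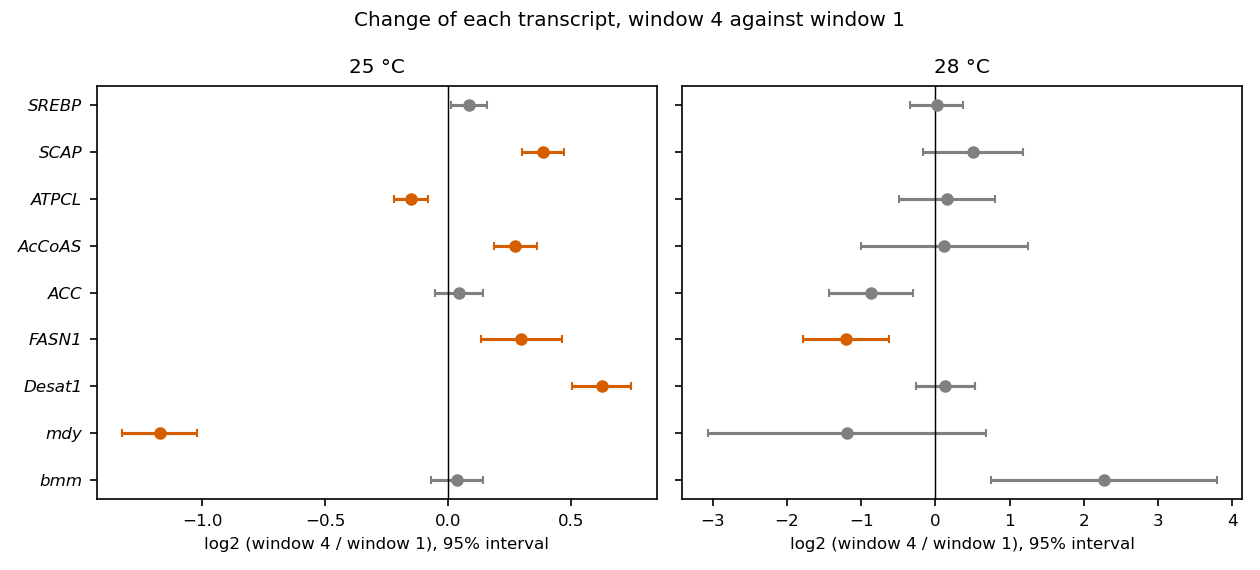
Log2 change of each of the 9 transcripts between windows 4 and 1 at 25 °C (left) and 28 °C (right), with 95% intervals from the SE, in orange where limma called the change. The scales of the panels differ: at 25 °C mdy lies at -1.17 and Desat1 at 0.62, and at 28 °C only FASN1, at -1.20, was called.

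At 28 °C the members with the strongest pattern were FASN1 and ACC, which had their lowest values in the same libraries. FASN1 was at 52.3, 54.1, 51.8, 59.0 and 135 FPKM in window 4, against 150.2, 186, 143, 141 and 139.5 FPKM in window 1. The windows did not overlap, and the log2 change was -1.20 ± 0.30 (SE, adjusted p = 0.033, limma over 7363 loci). It was the only member called in this comparison (2.54% of loci called, 0.462% downward), and the median log2 change of all loci was 0.25. ACC averaged 21.4 ± 2.85 FPKM in window 4 and 40.0 ± 7.37 FPKM in window 1 (SD, n = 5 each), without overlap but not called (log2 change -0.86, adjusted p = 0.14, limma). ACC was called when at least 0.9 FPKM was required in every library (adjusted p = 0.036, limma). Window 4 holds 4 of the 8 libraries. Without the 8, the log2 change was -0.16 for FASN1 and -0.60 for ACC, in a fit with CT81 alone in window 4. The 8 hold every low value of FASN1 and were noticed from them, so its smaller change follows from that choice. Nothing is read from it. The call for FASN1 was lost on leaving out any one of CT24, CT27, CT30, CT69, CT72, CT75 or CT78, with adjusted p up to 0.088 (limma).

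The low values of both genes were those of the 8 libraries. FASN1 ranged from 51.1 to 75.9 FPKM there, against 129 to 186 FPKM in the other 12. ACC ranged from 16.7 to 21.8 FPKM in the 8, against 25.7 to 49.1 FPKM in the other 12. Of the 2035 transcripts with at least 0.9 FPKM in every library, 7 lay wholly lower in the 8 (0.344%) and 11 wholly higher (0.541%). Since the 8 were noticed from FASN1, these are descriptions without a test, and nothing is read from the gap between the ranges. The other members did not share the split: SREBP, SCAP, ATPCL, AcCoAS, Desat1, mdy and bmm all overlapped between the 8 and the 12.

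**Figure D4:**
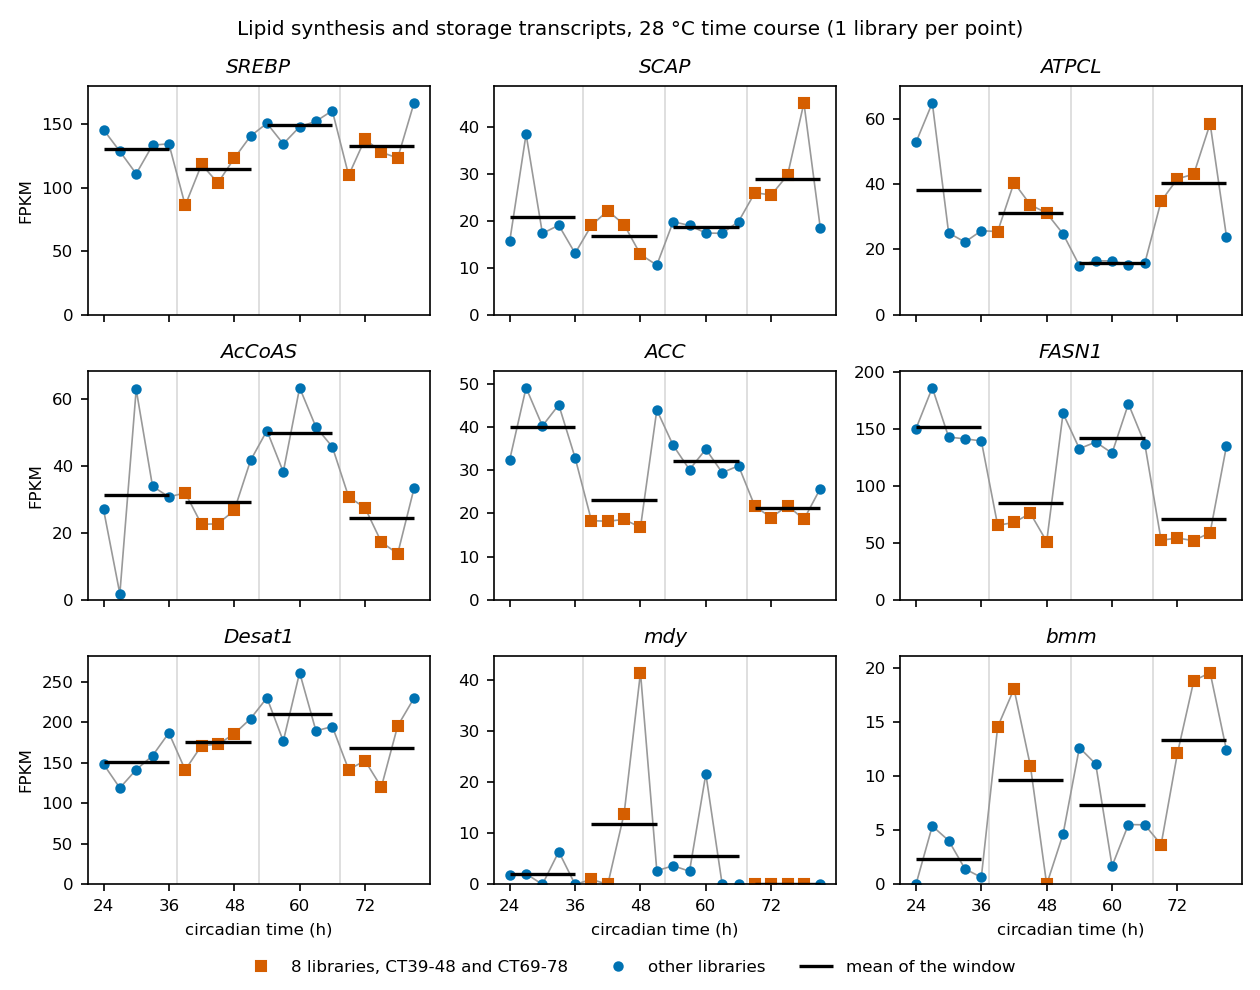
FPKM of the 9 tested transcripts against circadian time in hours at 28 °C, 1 library per point, with orange squares for the 8 libraries CT39 to CT48 and CT69 to CT78, which were chosen from this pattern, blue circles for the other 12 and black bars at the mean of each window. FASN1 lies between 51.1 and 75.9 FPKM in the 8 and between 129 and 186 FPKM in the 12, and ACC is split in the same way.

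For the enzymes that supply acetyl-CoA, every value of ATPCL in window 4 lay above window 3 at 28 °C, and every value of AcCoAS lay below. ATPCL was at 34.8, 41.6, 43.1, 58.5 and 23.9 FPKM in window 4, against 15.1, 16.5, 16.5, 15.3 and 15.8 FPKM in window 3. AcCoAS was at 30.6, 27.4, 17.2, 13.7 and 33.2 FPKM in window 4, against 50.4, 38.1, 63.2, 51.5 and 45.6 FPKM in window 3. Neither gene overlapped between these windows, and neither was called (log2 change 1.24 for ATPCL, adjusted p = 0.21, and -1.05 for AcCoAS, adjusted p = 0.73, limma). ACC did not overlap between them either and was not called. The share of all loci without overlap was not computed, so nothing is read from the lack of overlap. Of the 8 libraries, 4 are in window 4 and none is in window 3. Without the 8, which leaves CT81 alone in window 4, the changes were 0.57 for ATPCL, -0.55 for AcCoAS and -0.063 for FASN1. The 8 were noticed from low FASN1, so nothing is read from its smaller change. The filter of at least 0.9 FPKM in every library leaves fewer loci, 2035, to adjust over. With it ATPCL and FASN1 were called (adjusted p = 0.039 and 0.046, limma) and AcCoAS was not, beside 35 of the 2035 loci called. Without CT81 FASN1 was called over these windows (adjusted p = 0.016, limma), the only 1 of 20 fits, each lacking another library, to do so. CT81 is the only library of window 4 outside the 8. That fit therefore sets only libraries noticed for low FASN1 against window 3, and nothing is read from its call. At 25 °C AcCoAS had a log2 change of 0.11 over the same windows. No member was called at 28 °C between windows 2 and 1, 3 and 2, or 4 and 3, in which 1, 1 and 2 of all 7363 loci were called (0.0136%, 0.0136% and 0.0272%). At an unadjusted p under 0.05 the loci numbered 779, 447 and 546.

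The storage genes were sparsely covered at 28 °C. The lipase bmm averaged 13.3 ± 6.42 FPKM in window 4 and 2.31 ± 2.32 FPKM in window 1 (SD, n = 5 each), with overlap and without a call (log2 change 2.27, interval 0.75 to 3.79, adjusted p = 0.15, unadjusted p = 0.0084, limma). Without the 8 libraries, 4 of which are in window 4, the change was 2.34, with CT81 alone left in that window. Its median over the 20 libraries corresponds to about 6.85 reads. The acyltransferase mdy was listed at 0 in all 5 libraries of window 4 and between 0 and 6.41 FPKM in window 1. Its highest values, 41.4 FPKM at CT48 and 21.6 FPKM at CT60, came from libraries with 0.647 and 0.546 times the median depth. They correspond to about 29.3 and 12.9 reads. At CT45, with 0.922 times the median depth, mdy was at 13.9 FPKM, about 14.0 reads. SREBP had the lowest coefficient of variation over the 20 libraries, 15.1%, and was at 133 ± 21.3 FPKM in window 4 and 131 ± 12.7 FPKM in window 1 (SD, n = 5 each).

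Daily rhythm was tested with a version, written anew, of JTK-Cycle, the rank test of the study. In it each profile, after removal of a straight line, is ranked against cosines with periods of 21, 24 and 27 h. The study's own run called more transcripts in both time courses, so the calls given here are not those of the study. At 25 °C 1 of 9 members, mdy, was called (adjusted p = 0.030, period 27 h, JTK-Cycle), beside 4.89% of the 6933 transcripts tested. After Benjamini-Hochberg adjustment over those transcripts its value was 0.82, and the smallest over all of them was 0.55. The call was lost without detrending (adjusted p = 0.74, JTK-Cycle) and on leaving out any one of CT30, CT36, CT42, CT48, CT60, CT63, CT78 or CT81, with adjusted p up to 0.12 (JTK-Cycle). FASN1 had the next smallest value (adjusted p = 0.24, JTK-Cycle). At 28 °C 7 members had at least 0.9 FPKM in every library, and none was called (3.73% of 2035 transcripts called). The smallest values were 0.064 for AcCoAS and 0.10 for ATPCL and ACC (JTK-Cycle, adjusted). Without CT51, AcCoAS and ACC were called, and ATPCL was called without CT54 and without CT78, with adjusted p between 0.022 and 0.039 (JTK-Cycle). Cosinor regression, an alternative fit of a sine wave with a period fixed at 24 h, called 2 of them, ATPCL (p = 0.023) and ACC (p = 0.033). Its p-values were not adjusted over transcripts, and it called 183 of the 2035. The best JTK-Cycle period of both genes was 27 h. ACC was low in the 8 libraries, whose part in the result was not tested.

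Around the members, the wider lipid pathways at 25 °C moved in both directions, beside 33.5% of all loci called higher and 37.4% lower between windows 4 and 1, and nothing particular to a list is read from its count. Of the 2 proteases that release SREBP, S2P had a log2 change of 0.23 and S1P of 0.12 between windows 4 and 1, and both were called. In fatty acid synthesis and elongation 3 of 11 tested genes rose and 4 fell. Men, the malic enzyme that supplies NADPH, averaged 174 ± 16.2 FPKM in window 4 and 40.5 ± 5.93 FPKM in window 1 (SD, n = 5 each; log2 change 2.08, limma adjusted p = 7.0e-10), and its relative Men-b had a log2 change of -0.28. Also in this list were ifc, a sphingolipid desaturase, with 0.95, and sea, the mitochondrial citrate carrier, with -0.28 at a locus it shares with fabp.

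Glycerolipid and triglyceride synthesis, the pathway that ends in mdy, had 5 of 9 tested genes higher and 3 lower. The acyltransferases of its first step rose, with log2 changes of 0.74 for mino and 0.48 for Gpat4. Gpdh1, which makes glycerol 3-phosphate, was at 47.7 ± 2.16 FPKM in window 4 and 84.2 ± 6.86 FPKM in window 1 (SD, n = 5 each; log2 change -0.80, limma adjusted p = 2.0e-09), and Mulk, a lipid kinase, had -0.39. Among lipid droplet proteins and lipases 3 of 7 rose and 2 fell. The other fly perilipin, Lsd-1, was expressed, at 21.6 ± 1.65 FPKM in window 4 and 14.9 ± 1.12 FPKM in window 1 (SD, n = 5 each; log2 change 0.50, limma adjusted p = 3.4e-06). The lipase-related gene puml had a log2 change of 1.31, Seipin, which shapes the droplet, -0.54, and Lip4, at a locus shared with CG18301, -0.64.

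In fatty acid oxidation 12 of 17 tested genes were lower and 2 higher, with a median log2 change of -0.31, against -0.02 over all loci. Mtpalpha, a subunit of the mitochondrial trifunctional protein, averaged 59.3 ± 4.91 FPKM in window 4 and 113 ± 6.61 FPKM in window 1 (SD, n = 5 each; log2 change -0.93, limma adjusted p = 6.3e-10), and the acyl-CoA dehydrogenase gene CG3902 also had -0.93. The 2 that rose, Acox3 with 0.70 and Acox57D-p with 0.12, encode peroxisomal oxidases. In the mevalonate pathway 3 of 8 rose and 4 fell, with Fpps at 1.31 and Hmgs at 1.14 against Mvk at -0.34 and Mvd at -0.27. Among acyl-CoA synthetases and binding proteins 2 of 5 rose, Fatp1 with 0.40 and Acsl with 0.34, and 1 fell. That was pdgy, with -0.49 at a locus it shares with lncRNA:CR44831. In phospholipid and sphingolipid synthesis 4 of 12 rose and 5 fell, with Cds at 0.52, the shared locus of Pcyt1 and Pcyt2 at 0.63, eas at -0.60 and Sms at -0.52. In lipid uptake and transport 3 of 8 rose and 4 fell, with the scavenger receptor crq at 0.65, LpR2 at 0.52, Npc2a at -0.83 and Mtp at -0.60. Of 14 lipid regulators 6 rose and 4 fell, with the AMPK subunit SNF4Agamma at 1.23, Hnf4 at 0.40 and srl, the fly PGC-1, at -0.96. The locus that sug shares with CG13319 was at -0.37.

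At 28 °C few of these genes were called. Fatty acid oxidation had 1 of 17 higher and none lower, with a median log2 change of 0.81 beside 0.25 over all loci. Lipid droplet proteins and lipases had 1 of 8 higher, the mevalonate pathway 1 of 8 higher, and uptake and transport 1 of 9 higher and 1 lower. The other 6 lists had none. These counts stand beside 2.08% of loci called higher and 0.462% lower.

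The 5 expressed single-gene loci whose profile at 25 °C was most like that of FASN1 were Chsy (Spearman rho 0.94), pain (0.94), Tmtc3 (0.92), Hnf4 (0.92) and eEF2 (0.91), over 20 libraries. Hnf4 is also one of the listed lipid regulators. At 28 °C the same pairs gave 0.44 for Chsy, 0.22 for pain, 0.07 for Tmtc3, 0.18 for Hnf4 and 0.14 for eEF2. For bmm the closest were CG14036 (0.71), lncRNA:CR45187 (0.69), PolH (0.65), Fancm (0.63) and CG13895 (0.61), and at 28 °C these gave -0.08, -0.44, -0.04, 0.45 and 0.28. At 25 °C bmm varied little, with a coefficient of variation of 6.28% and no call. Both sets were picked for the highest rho among all expressed single-gene loci at 25 °C, so the size of rho there is not a test.

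In the dm3 build of the files, the loci lie on several chromosomes. FASN1 spans 3056597 to 3068177 and mdy 16802025 to 16826964 on chromosome arm 2L. SREBP spans 19787034 to 19796527, AcCoAS 21263821 to 21273343 and bmm 14769595 to 14779512 on 3L. Desat1 spans 8265321 to 8274768 on 3R, and Lsd-2 14963159 to 14970253 on X. ACC, ATPCL and SCAP lie on 2R.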

How the data were processed

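S2 cells were profiled in 2 time courses of 20 libraries, grouped by the temperature in the labels. The authors deposited FPKM values per locus, made from reads aligned to dm3 with TopHat and quantified on RefSeq genes with the Cufflinks suite, normalised within each time course, and a table of text columns (other) that names each locus. The 28 °C alignments had been subsampled to even out depth, which raises counting error. Symbols were matched for 98.3% of loci. No count test was run, because FPKM are not counts.

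Windows of 5 libraries were compared with limma 3.58.1 (R 4.3.3; trend=TRUE) on log2(FPKM + 1), over loci averaging at least 0.9 FPKM, and called at a Benjamini-Hochberg adjusted p under 0.05. Fold changes are on that scale, which understates low genes. JTK-Cycle was written anew in Python 3.11.15 and run where every library reached 0.9 FPKM. Both were tested on simulated data. All 10 members are named; of each pathway list, up to 2 called genes with the largest and 2 with the smallest change at 25 °C are named. Members and lists were chosen with earlier results of these data known. Alternatives were a pseudocount of 0.1, other filters, median-of-ratios scaling, no variance trend, a rank trend, each library left out and, for rhythm, no detrending, log values or cosinor regression. The fit without the 8 libraries was chosen after seeing the data: they were noticed from FASN1, and the limit of 0.05 on the loadings was set to take them.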

Additional observations from a re-analysis of the deposited data

Results flagged for a closer look

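Within windows of 5 libraries, 7 member values at 28 °C lay further from the rest than Dixon's 95% limit of 0.71 allows; 73 such groups were examined over both time courses, and chance gives about 1 in 20. No value at 25 °C did so. FASN1 gave 4 of the 7. It stood at 163.7 FPKM at CT51, against 51.1 to 75.9 FPKM in the other libraries of that window, and at 135 FPKM at CT81, against 51.8 to 59.0 FPKM; in both windows the other 4 libraries are among the 8 that were noticed from FASN1. It also stood at 186 FPKM at CT27, against 139.5 to 150.2 FPKM, and at 172 FPKM at CT63, against 129 to 138.5 FPKM. ACC was at 44.0 FPKM at CT51, against 16.7 to 18.6 FPKM. SCAP was at 38.5 FPKM at CT27, the shallowest library, against 13.1 to 19.1 FPKM. mdy was at 21.6 FPKM at CT60, against 0 to 3.66 FPKM.

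AcCoAS moved in opposite directions in the 2 time courses between windows 4 and 3, with no overlap between windows in either: its log2 change was -1.05 at 28 °C and 0.11 at 25 °C. The difference was not tested, and the share of all loci that moved this way was not computed. At 28 °C 4 of the 5 libraries of window 4 and none of window 3 are among the 8. Without the 8 the change was -0.55, with CT81 alone left in window 4.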

How the results depend on the processing

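Counts of members called between windows 4 and 1 at 25 °C were 6 to 7 over the limma alternatives and leave-one-out fits and 5 by the Kendall trend; between windows 2 and 1 they were 6, and between windows 3 and 2 they were 2, in every alternative run. Between windows 4 and 3 the 4 called became 2 without a filter on low values and 2 to 4 with single libraries left out. At 28 °C the 1 member called between windows 4 and 1 became 2 with at least 0.9 FPKM required in every library, 0 with no variance trend and 0 by the Kendall trend. It became 0 to 1 with single libraries left out. No count is read from the fit without the 8 libraries, since they were noticed from low FASN1. Between windows 4 and 3 the count of 0 became 2 with the every-library filter, beside 35 of 2035 loci, and 0 to 1 with single libraries left out. The 1 rhythmic member at 25 °C became 0 without detrending and 0 to 1 with single libraries left out, and the 0 at 28 °C became 1 without detrending, 2 by cosinor regression and 0 to 2 with single libraries left out. Over all transcripts the 339 rhythmic at 25 °C became 114 without detrending and 737 by cosinor regression, and the 76 at 28 °C became 137 with a filter on the mean and 183 by cosinor regression. Over all loci the 187 called between windows 4 and 1 at 28 °C became 14 with no variance trend and 105 by the Kendall trend. The causes were not tested.

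No member that was called changed sign. Some uncalled log2 changes did. Under median-of-ratios scaling ATPCL at 25 °C between windows 2 and 1 was 0.012, SREBP at 28 °C between windows 4 and 1 was -0.041, and bmm at 28 °C between windows 3 and 2 was 0.00071; with a pseudocount of 0.1 the value for bmm was 0.51. Without the 8 libraries, which leaves CT51 alone in window 2 and CT81 alone in window 4, changes at 28 °C were -0.051 for SCAP and -0.51 for ATPCL between windows 4 and 1, 0.11 for SREBP, 0.15 for ACC and 0.11 for FASN1 between windows 2 and 1, -0.44 for ACC, -0.21 for FASN1 and 0.35 for bmm between windows 3 and 2, and 0.16 for SREBP, -0.0077 for SCAP and 0.14 for Desat1 between windows 4 and 3. With single libraries left out, changes between windows 2 and 1 ran from -0.021 to 0.012 for ATPCL and from -0.022 to 0.031 for bmm at 25 °C, and at 28 °C from -0.37 to 0.0037 for SCAP, from -0.33 to 0.048 for ATPCL and from -0.36 to 0.78 for AcCoAS. At 28 °C they ran between windows 4 and 1 from -0.065 to 0.085 for SREBP and from -0.63 to 0.50 for AcCoAS, and between windows 3 and 2 from -1.42 to 0.019 for mdy and from -0.73 to 0.34 for bmm. At 28 °C mdy and bmm rest on few reads. No paired analysis was possible because the labels give no replicate numbers, each time point is 1 library and no test was made between the time courses.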
